A study of Homo sapiens with 27 samples.

Results

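The windows described here are those of human chromosome 19, the most gene-dense and among the most GC-rich chromosomes, in DNA of LN-229 cells given temozolomide (TMZ). They are all 100 kb windows of the chromosome that hold a marked position, outside the stretch from 24.4 to 27.2 Mb around the centromere, which leaves 559 of the 27573 autosomal windows. Of these, 45 lie in the zinc-finger gene cluster of the short arm (19.7 to 24.2 Mb), 66 in that of the long arm (52 to 58.6 Mb) and 448 elsewhere. A further 748 windows of the gene-poor chromosome 18, outside 15.4 to 20.9 Mb, served for comparison. The chromosome 19 windows held 2.60 starts of protein-coding genes on average. The mean was 0.844 in the short-arm cluster, 3.41 in the long-arm cluster and 2.65 elsewhere, and 96 windows held no gene start.

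LN-229 is an established glioblastoma line. The cells were either MGMT-transfected or carried the transfection control and are called wild type (WT). Cells of each kind were exposed either 1 time or 3 times, 4 h apart, to 1 mM TMZ or to the solvent alone (1% DMSO). Their DNA was extracted when 24 h had passed since the first exposure. Each of these 8 groups had 3 replicates, which the submitters call biological, and 3 libraries were made from naked DNA treated with 1 mM TMZ, so there were 27 libraries in 9 groups. Naked DNA replicate 2 is labelled as DNA of WT cells and replicate 3 as DNA of MGMT-transfected cells. The label of replicate 1 names neither.

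TMZ is an alkylating drug whose most toxic product is a methyl group on the oxygen at the sixth position of guanine, O6-methylguanine. MGMT removes that group by taking it onto itself, and each MGMT protein does so only 1 time. Chromosome 19 carries many short, actively transcribed genes with CpG-rich starts, and large tandem clusters of zinc-finger genes, most of which encode transcriptional repressors and lie in heterochromatin. Naked DNA has no chromatin and no repair, so its marked positions serve as the reference for marks placed without either.

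In the assay, fragments were enriched with an antibody to the lesion and a polymerase that stops at it marked its position. Each library is a list of marked positions with the base at each, and a marked guanine is called a G site here. Only positions with a deposited score of at least 30 were counted. The table of promoters (250 bases before to 50 after a gene start, RefSeq, GRCh38.p14) held 1185 promoters of these windows. Its base equalled the listed base at 20394 of 20394 marked positions in them, G and other bases together over the 27 libraries. The promoters printed next show the single bases that the assay reports. Each is the most often marked promoter among the named genes of 1 of 5 gene lists. Capitals are positions marked as G sites in any of the 12 libraries of TMZ-treated cells. A capital C stands for a marked guanine on the opposite strand. NLRP5 encodes a protein of the oocyte, RPL28 a protein of the large ribosomal subunit, ZNF536 a zinc-finger protein of the nervous system and STK11 the tumour suppressor kinase LKB1, and ZNF723 is a zinc-finger gene of the short-arm cluster.
NLRP5 (chr19:55986525-55986824, plus strand): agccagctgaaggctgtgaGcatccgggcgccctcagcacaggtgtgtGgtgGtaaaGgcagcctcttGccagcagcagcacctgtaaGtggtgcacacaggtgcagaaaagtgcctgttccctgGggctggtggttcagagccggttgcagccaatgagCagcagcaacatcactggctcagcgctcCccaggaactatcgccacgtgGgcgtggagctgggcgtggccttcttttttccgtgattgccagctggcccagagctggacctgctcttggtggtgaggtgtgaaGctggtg
RPL28 (chr19:55385682-55385981, plus strand): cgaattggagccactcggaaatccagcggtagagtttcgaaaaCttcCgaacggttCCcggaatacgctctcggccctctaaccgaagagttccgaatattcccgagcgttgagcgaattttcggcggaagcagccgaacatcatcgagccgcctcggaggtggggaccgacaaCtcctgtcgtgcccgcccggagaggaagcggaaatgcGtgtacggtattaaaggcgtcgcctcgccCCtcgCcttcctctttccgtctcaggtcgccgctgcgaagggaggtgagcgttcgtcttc
ZNF536 (chr19:30225342-30225641, plus strand): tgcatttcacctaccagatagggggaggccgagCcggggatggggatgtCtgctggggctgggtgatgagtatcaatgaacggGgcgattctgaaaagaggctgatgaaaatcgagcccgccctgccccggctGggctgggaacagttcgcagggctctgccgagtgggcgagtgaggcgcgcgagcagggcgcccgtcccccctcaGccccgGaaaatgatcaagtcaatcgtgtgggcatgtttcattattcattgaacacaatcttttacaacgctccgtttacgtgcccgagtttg
ZNF723 (chr19:22832041-22832340, plus strand): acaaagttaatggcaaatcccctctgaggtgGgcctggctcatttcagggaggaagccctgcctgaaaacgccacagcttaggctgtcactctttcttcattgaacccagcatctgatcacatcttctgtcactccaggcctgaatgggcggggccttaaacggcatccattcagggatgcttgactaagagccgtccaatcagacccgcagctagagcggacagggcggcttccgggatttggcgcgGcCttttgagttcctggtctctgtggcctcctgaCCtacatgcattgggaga
STK11 (chr19:1205528-1205827, plus strand): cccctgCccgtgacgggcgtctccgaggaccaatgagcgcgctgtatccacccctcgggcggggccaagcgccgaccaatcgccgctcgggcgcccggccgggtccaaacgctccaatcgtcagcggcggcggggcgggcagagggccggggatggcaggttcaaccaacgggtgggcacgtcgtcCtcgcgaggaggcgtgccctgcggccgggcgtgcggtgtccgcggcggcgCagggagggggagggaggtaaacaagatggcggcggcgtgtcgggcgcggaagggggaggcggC

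Marks in these promoters were recorded base by base, and some in RPL28 and ZNF723 lay next to each other. The NLRP5 promoter had 11 marked positions, 9 of them on the printed strand, and 8 of the 11 guanines followed a purine (A or G) on their own strand. The RPL28 promoter had 9 positions, 8 of them on the opposite strand, and 7 followed a purine. In the ZNF536 promoter 5 of 6 marked guanines followed a purine, in the ZNF723 promoter 5 of 5, and in the STK11 promoter 2 of the 3 that had a preceding base within the stretch. The STK11 promoter was the most GC-rich of the 5, at 75.3% G or C with 44 CpG dinucleotides, and had the fewest marked positions, 4. Most of these positions were marked in 1 library: the 11 NLRP5 positions came from 11 sites over the 12 libraries, and the 5 ZNF723 positions from 7. The solvent libraries together had 1 site in the NLRP5 promoter, 2 in that of RPL28, 1 in that of ZNF536 and 0 in those of ZNF723 and STK11. In the same order the 3 naked libraries together had 3, 8, 4, 3 and 5 sites, so in naked DNA STK11 did not have the fewest.

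Over all chromosome 19 promoters the base before a marked guanine was a purine more often than among the guanines present, of which 58.5% follow a purine. A purine came first in 79.4% ± 2.13 (SD, n = 3) of marked guanines of naked DNA, 80.0% ± 2.18 (n = 6) of those in cells given TMZ 3 times and 75.3% ± 4.05 (n = 6) in cells given it 1 time. In the solvent controls it was 59.1% ± 11.5 (n = 12), near the share among all guanines. C before the marked guanine, the CpG context, made up 22.1% of all promoter guanines but 10.9% ± 0.745 of those marked in naked DNA and 10.5% ± 1.43 in cells given TMZ 3 times. The solvent values rest on 32 to 141 marked guanines per library, against 1500 to 1999 in naked DNA. Replicate 1 of both controls given solvent 1 time lay apart from the other controls, with purine shares of 75.0% in WT and 80.2% in MGMT cells. The other 10 controls lay between 42.9% and 65.8%. No test was run on these shares.

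**Figure D1:**
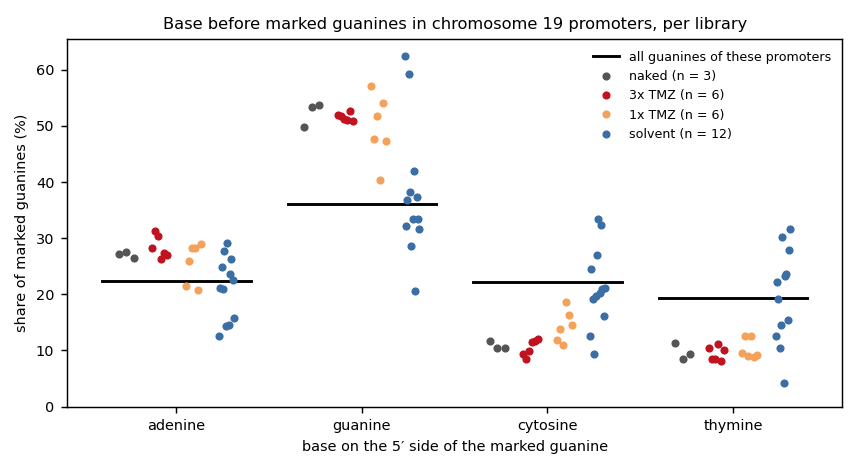
Share of marked guanines in chromosome 19 promoters by the base before them, in percent, 1 point per library with libraries grouped by treatment. The black lines give the share among all guanines of these promoters. Naked DNA and cells given TMZ 3 times sit above the line for guanine and below it for cytosine, while the solvent controls scatter around both.

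Depth differed widely between libraries. They listed 1347019 to 15745885 positions, of which 45.9% to 85.8% had a score of at least 30. Autosomal G sites numbered 5121979 to 8822222 in naked DNA, 2772719 to 5477076 in cells given TMZ 3 times, 717619 to 2630943 in cells given it 1 time and 165195 to 797936 in solvent controls. On chromosome 19, guanine made up 72.4% ± 1.69 (n = 3) of marked positions in naked DNA, 66.0% ± 2.15 in WT and 62.4% ± 4.88 in MGMT cells given TMZ 3 times, and 50.3% ± 5.48 and 42.3% ± 6.69 in those given it 1 time. In 11 of the 12 solvent controls it lay between 21.8% and 31.4%, and it was 49.6% in MGMT replicate 1 given solvent 1 time. A good part of the marked positions in cells were thus at other bases, and those sites of the same libraries are set beside the G sites for the main comparisons.

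Some libraries shared more positions at bases other than G than their sizes gave. Of 351 pairs, 48 shared over 1.6 times the median, and these pairs join the libraries into 5 sets. Replicate 1 of MGMT cells shared 289 times the median between its TMZ and solvent libraries given 1 time, and replicate 1 of WT cells 152 times. Naked DNA replicate 1 shared 65.2 times the median with that WT control and 62.6 times with that MGMT control. No pair from different sets shared over 1.40 times. Each set of cell libraries holds both genotypes. The first 3 sets hold TMZ and solvent libraries, and the fourth only the replicate 3 controls given solvent 3 times. Single ratios for TMZ and solvent are therefore also given within the first 3 sets, and calls of windows and genes with the set as a block, both also without the 2 replicate 1 controls given solvent 1 time.

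Chromosome 19 was marked more densely than chromosome 18 in every library. In naked DNA it had 308 ± 85.1 G sites per window (SD, n = 3, 248 to 405) against 225 ± 73.4 on chromosome 18, a fold of 1.38 ± 0.0727. The fold was 1.35 ± 0.0493 (n = 6) in cells given TMZ 3 times, 1.22 ± 0.0817 (n = 6) in cells given it 1 time and 1.17 ± 0.103 (n = 12) in solvent controls. The lowest of the 27 was 1.04 in a WT control. The number of sites itself followed the treatment: 219 ± 53.8 per chromosome 19 window in WT and 163 ± 68.3 in MGMT cells given TMZ 3 times, 76.1 ± 40.6 and 40.7 ± 14.1 in those given it 1 time, and 7.57 to 30.3 in the solvent libraries. Solvent libraries therefore give little depth for a single window.

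To compare libraries of such different size, the G sites of chromosome 19 were divided by those of the autosomes other than 18 and 19 and set on a log2 scale with the mean of naked DNA at 0. The naked libraries themselves were at -0.034, 0.041 and -0.0066 for replicates 1, 2 and 3. WT cells given TMZ 1 time were at -0.070, -0.28 and -0.067, and MGMT cells at -0.13, -0.26 and -0.15. After 3 exposures these levels were -0.074, -0.0011 and 0.050 in WT and -0.15, -0.064 and -0.053 in MGMT cells. Solvent controls given 1 time were at -0.038, -0.33 and -0.16 in WT and 0.026, -0.36 and -0.28 in MGMT cells. Those given 3 times were at -0.22, -0.23 and -0.21 in WT and -0.35, -0.19 and -0.26 in MGMT cells. All 12 TMZ libraries but 1, and all 12 controls but 1, lay below 0. TMZ and solvent libraries overlapped, and the highest control was MGMT replicate 1 given solvent 1 time.

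**Figure D2:**
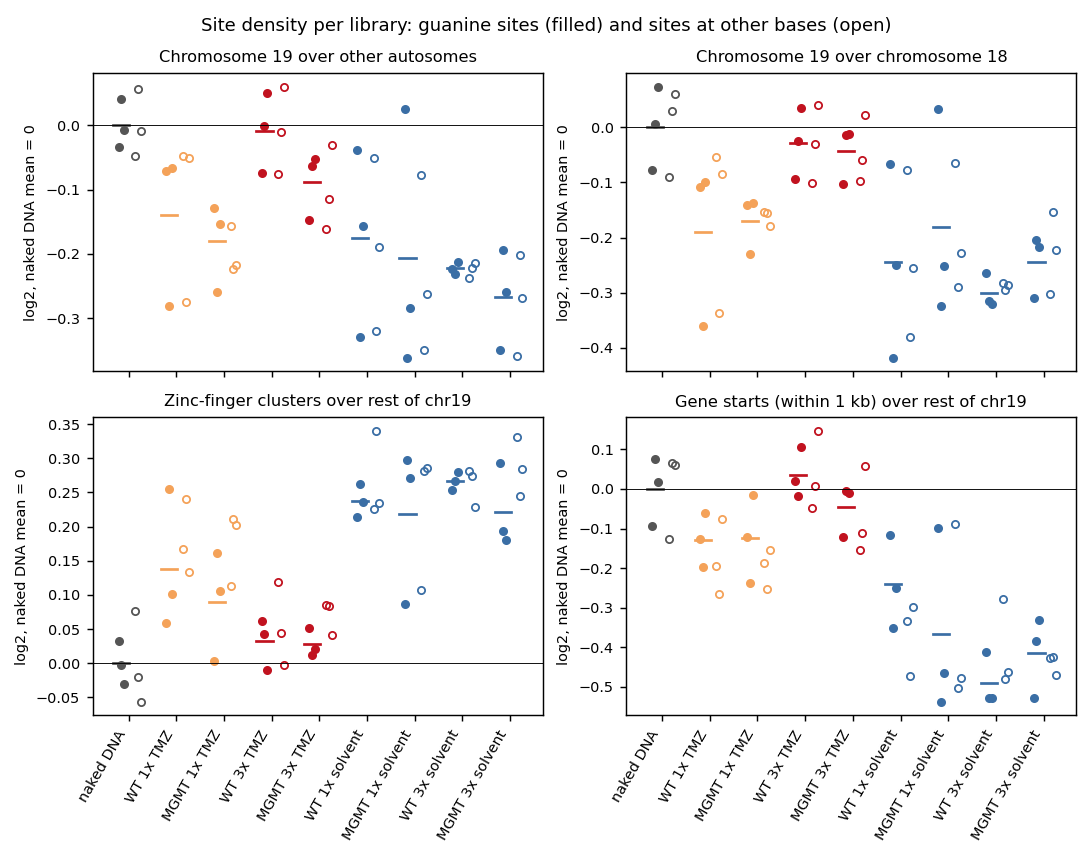
Log2 ratio of G sites per library, with the mean of naked DNA at 0, for chromosome 19 over the other autosomes, chromosome 19 over chromosome 18, the zinc-finger clusters over the rest of chromosome 19, and the stretches within 1 kb of a gene start over the rest. Filled points are G sites with group means as bars, and open points are sites at other bases of the same libraries. Most controls lie below the TMZ libraries at gene starts. In the zinc-finger clusters all 12 controls lie above the median TMZ library, 6 of them above every TMZ library, and open points lie near the filled ones.

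Chromosome 19 was at -0.104 ± 0.096 (n = 12) in TMZ-treated cells and -0.218 ± 0.118 (n = 12) in solvent controls. The difference of 0.114 was in the same direction in 10 of 12 same-numbered pairs and did not pass after adjustment over the 18 single-value comparisons (exact two-sided permutation, genotype and exposure number kept fixed, p = 0.0234, adjusted p = 0.0841). Against chromosome 18, whose own level was 0.0036 ± 0.039 in TMZ cells and 0.025 ± 0.058 in controls, the difference was 0.135 (10 of 12 pairs, exact permutation adjusted p = 0.0661). Both passed with no minimum score (0.160 and 0.169, exact permutation adjusted p = 0.00759 each). A block for the replicate number also let both pass (exact permutation adjusted p = 0.0393 each). Without the 2 replicate 1 controls given solvent 1 time, the differences were 0.156 and 0.180, each with an exact permutation adjusted p of 0.000569. Those 2 were the highest controls in both measures, so leaving them out could only widen the differences. This setting was not planned, and its p-values are no firmer than those of the main tests. Within the sharing sets, the difference for chromosome 19 was 0.169 and 0.125 in sets 1 and 2 and -0.093 in set 3, which holds those controls. The sites at other bases of the same libraries differed by 0.120 for chromosome 19 and 0.137 against chromosome 18. Taken relative to them, the G-site differences were -0.0065 and -0.0024. A difference of the G sites from the other bases was not detectable. TMZ cells were lower than naked DNA by 0.104, which did not pass (exact permutation, adjusted p = 0.178, smallest p the design allows 0.0022).

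The number of exposures was compared among TMZ-treated cells. Chromosome 19 over chromosome 18 was at -0.036 ± 0.053 (n = 6) after 3 exposures and -0.18 ± 0.0997 (n = 6) after 1, so it lay closer to naked DNA after 3. The difference of 0.144 was in the same direction in 6 of 6 same-numbered pairs and passed (exact permutation within genotype, p = 0.005, the smallest that 400 arrangements allow, adjusted p = 0.03). It was 0.114 and 0.196 within sets 1 and 2. It was 0.202, 0.078 and 0.151 without replicate 1, 2 or 3 (exact permutation, adjusted p = 0.143 to 0.333). These smaller designs allow no p of 0.05 or below, so none could pass and they show only size and direction. The difference did not pass with no minimum score (0.127, exact permutation adjusted p = 0.06) or with the solvent control subtracted (0.162, exact permutation adjusted p = 0.055). With the replicate number as a block it gave the smallest p that 6 pairs allow, 0.031, and did not pass after adjustment (exact sign-flip permutation, adjusted p = 0.0875). The other bases differed by 0.123, and relative to them the G sites differed by 0.021 (exact permutation, adjusted p = 0.776). Against the other autosomes in place of chromosome 18 the difference was 0.111 (exact permutation, adjusted p = 0.105).

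MGMT-transfected and WT cells did not differ detectably in the level of chromosome 19. Under TMZ, chromosome 19 was at -0.13 ± 0.074 in MGMT and -0.074 ± 0.11 in WT cells (n = 6 each, difference -0.060, exact permutation adjusted p = 0.344). Against chromosome 18 the difference was 0.0021 (adjusted p = 0.965, exact permutation). Under solvent these differences were -0.039 (exact permutation, adjusted p = 0.651) and 0.060 (exact permutation, adjusted p = 0.534). For chromosome 18 itself, MGMT was lower than WT in 6 of 6 pairs under TMZ and in 6 of 6 under solvent, with differences of -0.062 and -0.099, and the genotypes did not overlap under TMZ (highest MGMT 0.013, lowest WT 0.015) or under solvent (0.011 and 0.028). Its sites at other bases differed by -0.075 and -0.099. In naked DNA, chromosome 18 was at 0.044, 0.036 and -0.080 in replicates 1, 2 and 3. Replicate 2 is labelled WT and replicate 3 MGMT, so naked DNA went in the same direction, with 1 library each. Values against chromosome 18 carry this difference in their divisor, and its cause was not tested. The smallest p that the genotype comparisons of cells allow is 0.005.

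The zinc-finger clusters, tandem arrays of genes of the ZNF family, were marked less densely than the rest of the chromosome in naked DNA, and more so on the short arm. Naked DNA had 188 ± 58.6 G sites per window in the short-arm cluster, 283 ± 80.6 in the long-arm cluster and 324 ± 88.4 elsewhere (n = 3). The fold of the short-arm cluster over the rest was 0.575 ± 0.0217 in naked DNA, 0.592 ± 0.0280 after 3 TMZ exposures, 0.672 ± 0.0726 after 1 and 0.787 ± 0.0777 in solvent controls. For the long-arm cluster these folds were 0.871 ± 0.0137, 0.886 ± 0.0100, 0.910 ± 0.0354 and 0.952 ± 0.0309. The order of the treatments was the same in both clusters, with solvent controls the most even along the chromosome.

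Relative to naked DNA, both clusters together were at a log2 level of 0.072 ± 0.075 (n = 12, from -0.0094 over a median of 0.055 to 0.26) in TMZ cells and 0.24 ± 0.060 (n = 12, from 0.086 over a median of 0.26 to 0.30) in controls. The difference of -0.164 had the same direction in 12 of 12 pairs (exact permutation adjusted p = 0.00169) and was -0.196, -0.144 and -0.119 within sets 1, 2 and 3. Without the 2 replicate 1 controls given solvent 1 time it was -0.181. Without replicate 2 or 3 the exact permutation adjusted p was 0.0556 and 0.125, at differences of -0.177 and -0.153. The short-arm cluster differed by -0.32 (12 of 12 pairs) and the long-arm cluster by -0.084 (11 of 12), both as descriptions. At other bases the differences were -0.140 for both clusters, -0.27 for the short-arm and -0.065 for the long-arm cluster. Relative to them, the G sites differed by -0.024 (exact permutation, adjusted p = 0.756). MGMT and WT cells differed by -0.026 under TMZ and -0.032 under solvent (exact permutation, adjusted p = 0.613 and 0.534), and 3 and 1 exposures by -0.084 (exact permutation, adjusted p = 0.141).

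**Figure D3:**
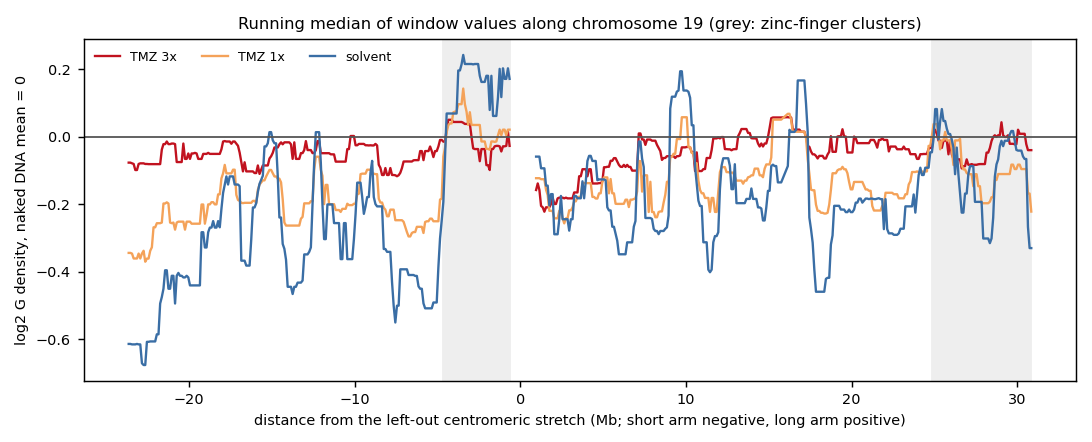
Running median over 11 windows of the naked-relative log2 density of G sites along chromosome 19, by distance in Mb from the centromeric stretch left out, for cells given TMZ 3 times or 1 time and for solvent controls. Grey bands are the zinc-finger clusters. The solvent line is the highest of the 3 over most of the short-arm cluster and the lowest over most of the stretches outside the clusters.

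Windows differed with their gene density, above all in the solvent controls. In windows with 0, 1 to 2, 3 to 5 and 6 or more gene starts (90, 202, 206 and 47 windows with at least 100 G sites in each naked library), the naked density was 263, 287, 344 and 394 G sites per window. The median naked-relative log2 level in solvent controls was -0.047 ± 0.11, -0.080 ± 0.086, -0.27 ± 0.14 and -0.39 ± 0.23 (SD over 12 libraries). In TMZ cells it was -0.10 ± 0.032, -0.067 ± 0.059, -0.11 ± 0.12 and -0.13 ± 0.14. The levels of the controls were thus lower in the windows with more gene starts, while the means of the TMZ cells lay between -0.13 and -0.067. No test was run on these bins. Sites at other bases of the controls were at -0.11, -0.13, -0.30 and -0.46. Chromosome 18 windows without a gene start (487) were at 0.024 ± 0.050 in TMZ cells and 0.10 ± 0.064 in controls.

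Gene starts were compared with the rest of the chromosome next. Sites within 1 kb of the start of a protein-coding gene, over the rest of the chromosome, were at a log2 level of -0.066 ± 0.098 in TMZ cells (-0.24 to 0.11) and -0.38 ± 0.16 in controls (-0.54 to -0.098). The difference of 0.312 was seen in 10 of 12 pairs (exact permutation adjusted p = 0.00169). It was 0.407, 0.323 and -0.017 within sets 1, 2 and 3. Without the 2 replicate 1 controls given solvent 1 time, the highest 2 controls here, it was 0.366. Without replicate 2 or 3 it was 0.30 and 0.269, with exact permutation adjusted p of 0.0556 and 0.125. The other bases differed by 0.291, and relative to them the G sites differed by 0.021 (exact permutation, adjusted p = 0.868). TMZ cells and naked DNA differed by -0.066 (exact permutation, adjusted p = 0.468), and MGMT and WT cells by -0.040 under TMZ (exact permutation, adjusted p = 0.534).

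The dip lay at the starts. In the 250 bases before 1548 gene starts, the G-site level relative to naked DNA was -0.78 ± 0.26 (n = 12) in controls, -0.35 ± 0.19 (n = 6) after 1 TMZ exposure and -0.17 ± 0.21 (n = 6) after 3. In the bin centred at -2875 bases it was -0.24 ± 0.27, -0.18 ± 0.18 and -0.021 ± 0.086. Before the starts of 275 ZNF and ZFP genes the controls were at -0.73 ± 0.50, and before those of 1273 other genes at -0.80 ± 0.26. In controls the dip was thus present at both kinds of gene, though at ZNF and ZFP genes it rested on a mean of 13.7 sites per library. After 1 TMZ exposure the level was -0.087 ± 0.19 at ZNF and ZFP genes and -0.41 ± 0.20 at the others. After 3 it was -0.11 ± 0.22 and -0.18 ± 0.22. Over all starts, sites at other bases in the same bin were at -0.99 ± 0.30 in controls, -0.43 ± 0.24 after 1 TMZ exposure and 0.030 ± 0.25 after 3. These are descriptions, with no test.

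**Figure D4:**
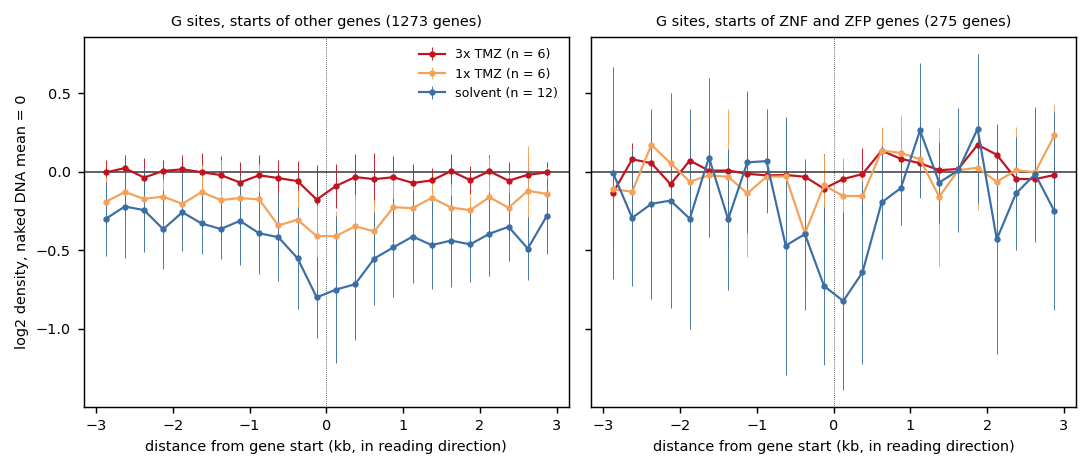
Naked-relative log2 density of G sites by distance from gene starts, in 250 bp bins up to 3 kb on each side, for 275 ZNF and ZFP genes and for 1273 other genes of chromosome 19. Lines are means over libraries and error bars the SD. The solvent line dips next to the start in both panels, -0.73 and -0.80 in the bin before it.

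Window by window, TMZ-treated cells and controls were compared with limma over all 26843 autosomal windows tested, of which 19.3% were called at an adjusted p of 0.05 (10.3% higher and 8.96% lower under TMZ). On chromosome 19, 153 of 556 tested windows were called, 136 higher and 17 lower. This is 27.5%, with a median log2 difference of 0.126 against -0.018 over all windows tested. Outside the clusters 127 windows were higher and 11 lower of 445, in the long-arm cluster 9 and 0 of 66, and in the short-arm cluster 0 and 6 of 45. Chromosome 18 had 43 higher and 48 lower of 748. The count on chromosome 19 was 141 without replicate 1, 61 without replicate 2 and 39 without replicate 3. It was 184 without the 2 replicate 1 controls given solvent 1 time (6583 of all windows) and 131 with the sharing set as a block (3891 of all). With at least 5 sites expected in the smallest library it was 103 of 510 (20.2%, against 17.3% of all such windows), 84 higher and 19 lower, so the share lay closer to that of all windows.

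Of the 153 called windows, 150 differed in the same direction at other bases, as did 448 of all 556 tested on chromosome 19. Of the called windows, 119 were also called at other bases. Such counts were not made over all autosomal windows. Over the 556 windows the differences at G sites and at other bases had a Pearson r of 0.81, as a description of windows measured in the same libraries. In the called windows the median size of the difference was 0.41 at G sites and 0.31 at other bases. These windows were chosen by their G sites, which raises the first value. Over all 556 windows the median difference was 0.126 at G sites and 0.137 at other bases. Marks at all bases thus moved in most of the windows called.

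**Figure D5:**
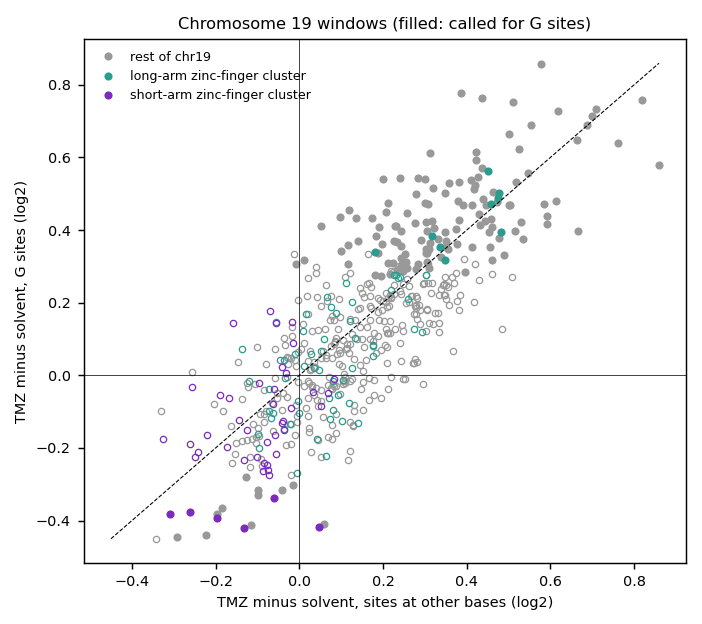
Log2 difference between TMZ-treated cells and solvent controls in each of 556 chromosome 19 windows, at G sites (vertical) and at other bases (horizontal), with windows called in limma filled and colours for the zinc-finger clusters and the rest. The dashed line marks equal differences. Points run along the line, and the short-arm cluster has filled points only below 0.

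The window with the smallest p was chr19:1100001-1200000, which holds GPX4, the enzyme that reduces lipid peroxides, and SBNO2. It had 580, 356 and 469 G sites in the naked libraries. WT cells given TMZ had 60, 118 and 183 after 1 exposure and 253, 378 and 380 after 3. MGMT cells had 42, 47 and 79 after 1 and 158, 364 and 191 after 3. WT controls had 6, 35 and 38 after 1 exposure and 8, 17 and 10 after 3, and MGMT controls 20, 20 and 11, then 25, 24 and 13. Relative to naked DNA the TMZ libraries lay between -0.40 and 0.090 and the controls between -1.4 and -0.41. The groups thus narrowly did not overlap, but the window was chosen for that. It was the only 1 of the 153 called windows of the chromosome without overlap. Overlap was not examined on the other autosomes, so how usual such a window is there is not known. The log2 difference was 0.77 ± 0.10 (SE, limma adjusted p = 4.0e-07), and 0.44 at other bases.

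Windows lower under TMZ were mostly poor in genes or held zinc-finger genes. The 6 of the short-arm cluster include those with ZNF254, ZNF723 and ZNF66. Of the 11 outside the clusters, 3 hold no protein-coding gene and 7 hold ZNF genes, such as chr19:37400001-37500000 with ZNF569 and ZNF570 (-0.44 ± 0.10 SE, limma adjusted p = 0.00172, -0.22 at other bases). The last holds LGALS14, CLC and LEUTX. Outside the clusters, the 79 tested windows with a ZNF or ZFP gene had 9 higher and 7 lower calls (median 0.026). The 297 with a gene start and no such gene had 115 and 1 (median 0.23), and the 69 with neither had 3 and 3 (median -0.0066). This division was made after the values were seen. Of all autosomal windows tested, 10.3% were higher and 8.96% lower under TMZ. Both shares in the windows with a ZNF or ZFP gene were near these, so lower calls were not particular to them. In the windows with neither, both shares lay below these.

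By level, the highest TMZ windows, chosen for their level and so not tested, were chr19:56500001-56600000 with ZNF471, ZFP28, ZNF470 and ZNF71 (0.33 ± 0.18, n = 12), chr19:24100001-24200000 with ZNF254 (0.31 ± 0.16) and chr19:42700001-42800000 with the pregnancy glycoprotein genes PSG3 and PSG8 (0.26 ± 0.16). Controls were at 0.30 ± 0.59, 0.71 ± 0.21 and 0.43 ± 0.46 there. The PSG genes have near-identical copies, so placing reads among them is uncertain. The lowest were chr19:1200001-1300000 around STK11 and CIRBP (-0.37 ± 0.38, controls -0.85 ± 0.41), chr19:30500001-30600000 within ZNF536 (-0.36 ± 0.31, controls -0.46 ± 0.38) and chr19:29700001-29800000 with C19orf12 (-0.33 ± 0.20, controls -0.34 ± 0.31). At other bases the 3 highest were at 0.14, 0.14 and 0.24 in TMZ cells and the 3 lowest at -0.38, -0.19 and -0.51. In TMZ cells these 6 windows spread widely between libraries.

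Between genotypes under TMZ, limma called 12.9% of the 26843 windows (8.44% higher and 4.43% lower in MGMT cells) but 3 of the 556 on chromosome 19, all lower in MGMT cells. The clearest was chr19:32900001-33000000, which holds CEP89, RHPN2 and FAAP24, a subunit of the Fanconi anaemia core complex. WT cells had 34, 84 and 106 G sites there after 1 exposure and 161, 234 and 223 after 3, and MGMT cells 22, 21 and 47, then 88, 213 and 108. On the naked-relative scale WT lay between -0.033 and 0.15 and MGMT between -0.75 and -0.055. Under solvent, with 6 to 30 G sites per library, MGMT was also lower on average, at -0.34 ± 0.36 (n = 6) against -0.078 ± 0.26 (n = 6) in WT, and the groups overlapped. Under TMZ the groups did not overlap, which was a condition for naming this window (log2 difference -0.37 ± 0.11 SE, limma adjusted p = 0.0231, -0.045 at other bases). The other two were chr19:21900001-22000000 with ZNF208 (-0.41, limma adjusted p = 0.0262, 0.0075 at other bases) and chr19:52000001-52100000 with ZNF615, ZNF614, ZNF432 and ZNF841 (-0.33, limma adjusted p = 0.0424, -0.30 at other bases). None of the 3 kept its call in every alternative. The first lost it in 5 of 10 (highest limma adjusted p = 0.263), among them without any 1 of the 3 replicates, the second in 4 of 9 (0.386, without replicate 3) and the third in 7 of 10 (0.459, without replicate 3). The count was 0 to 5 when a replicate was left out and 13 with the sharing set as a block, 4 of them higher in MGMT cells. For 3 against 1 exposure (0.00373% of all windows) and for TMZ cells against naked DNA (0%), limma called 0 windows of chromosome 19. With the sharing set as a block it called 27 for exposures (416 of all windows), all higher after 3, and 0 against naked DNA. At an unadjusted p under 0.05 there were 114 (20.5%, against 9.34% of all windows) and 42 (7.55%, against 4.69%).

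Gene by gene, 1326 of the 1451 protein-coding genes of these windows had enough sites to be tested. TMZ cells and controls differed in 102 of them, 77 higher and 25 lower, which is 7.69% against 10.1% of the 17094 genes tested (5.81% higher and 4.24% lower). The median log2 difference was 0.072, against 0.015 over all genes, and 0.117 at other bases. Of the 98 of these genes also tested at other bases, 92 had the same direction. Among the 71 genes with at least 5 sites expected in the smallest library 22 were called (31.0%, against 21.9% of all 4304 such genes). When a replicate was left out, 16 to 86 genes were called. With the sharing set as a block 66 were called, 42 higher and 24 lower, and 139 without the 2 replicate 1 controls given solvent 1 time. Many of the genes named next had few sites in controls, so single genes are less firm than windows. In data simulated for these counts, 37 of 184 calls were false and 27 of those were false calls of lower. The simulated libraries were independent and had no sharing sets, so these rates need not hold for the deposited libraries.

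Zinc-finger genes had medians below 0. Of 132 ZNF and ZFP genes in the clusters, 2 were higher and 5 lower (median -0.143, -0.094 at other bases). Of 122 such genes elsewhere on the chromosome, 1 was higher and 6 lower (median -0.171), and of the 1072 other genes 74 were higher and 14 lower (median 0.124). Over all autosomal genes tested 5.81% were higher and 4.24% lower. The shares of lower calls among zinc-finger genes were near the latter. ZNF98 had 6.92 to 11.1 (median 8.04) sites per 1000000 G sites of the other autosomes in naked DNA, 4.84 to 12.7 (median 8.13) in TMZ cells and 3.94 to 19.8 (median 12.3) in controls. Its log2 difference was -0.72 ± 0.21 (SE, limma adjusted p = 0.0214), and -0.53 at other bases. Without replicate 2 it was -0.37 and did not pass (limma adjusted p = 0.546), nor did it with no minimum score (-0.57, limma adjusted p = 0.0598). ZNF723, whose promoter is printed above, had 7 to 74 G sites (median 26) in TMZ cells and 3 to 12 (median 8) in controls and fell by 0.67 ± 0.18 (SE, limma adjusted p = 0.0129), with -0.31 at other bases. Its call was lost without replicate 1 (-0.53, limma adjusted p = 0.119) or 2 (-0.71, limma adjusted p = 0.123). At the other end, ZNF470 rose by 0.82 ± 0.24 (SE, limma adjusted p = 0.0232), with 0 to 4 G sites per control and no call without replicate 2 (0.60, limma adjusted p = 0.342) or 3 (0.78, limma adjusted p = 0.170), and ZNF17 was at 0.79 ± 0.29 (limma adjusted p = 0.0642). At other bases these were at -0.14 and -0.09, so the direction was not shared. All 4 overlapped between TMZ cells and controls.

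Among 13 genes of chromatin and DNA methylation, 3 were higher under TMZ and 0 lower, against 5.81% and 4.24% of all autosomal genes tested. Their median log2 difference was 0.40, and 0.30 at other bases. KDM4B, a histone demethylase, had 132 to 137 such normalised sites in naked DNA, 88.3 to 149 (median 119) in TMZ cells and 40.6 to 150 (median 78.1) in controls. The highest control lay level with the highest TMZ library, so the groups overlapped. Its log2 difference was 0.51 ± 0.11 (SE, limma adjusted p = 0.00198), and 0.37 at other bases. DOT1L, a histone methyltransferase, had 33.8 to 58.4 normalised sites (median 50.2) in TMZ cells and 20.1 to 50.1 (median 30.6) in controls, a log2 difference of 0.55 ± 0.13 (SE, limma adjusted p = 0.00614), and 0.59 at other bases. KDM4B and DOT1L also passed with the stricter minimum of sites. Without replicate 2 neither passed (0.39 and 0.56, limma adjusted p = 0.165 and 0.105), nor without replicate 3 (0.44 and 0.55, limma adjusted p = 0.0673 and 0.0716). Members with no call ranged from UHRF1 at 0.087 to TRIM28 at 0.59.

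Of 17 tested genes of growth control and tumours, 2 were higher and 0 lower (median 0.054, and 0.32 at other bases), against 5.81% and 4.24% of all autosomal genes tested. GNA11, an alpha subunit of a G protein, had 25.1 to 27.2 normalised sites in naked DNA, 15.7 to 29.3 (median 25.1) in TMZ cells and 0 to 33.4 (median 9.0) in controls, which had 0 to 12 G sites each. The TMZ libraries lay near naked DNA, and the median control lay below them all. The log2 difference was 1.36 ± 0.24 (SE, limma adjusted p = 0.000331), it passed under all 10 alternatives run for it, and it was 0.83 at other bases. STK11 differed by 0.66 ± 0.23 (SE, limma adjusted p = 0.0486), lost under 7 of 10 alternatives, and by 0.85 at other bases. INSR, the insulin receptor which had the most naked G sites of this list, was at -0.092 (limma adjusted p = 0.599).

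Limma called 0 of 13 DNA repair genes, 5 of which had an unadjusted p under 0.05, as had 25.4% of all genes tested (median 0.27, and 0.16 at other bases). LIG1, the DNA ligase of replication, was at 0.45 ± 0.19 (SE, limma adjusted p = 0.122). Limma called 0 of 11 tested genes of cytosolic ribosomal proteins (0 at an unadjusted p under 0.05, median 0.082), with RPL28 at 0.33 (limma adjusted p = 0.362), and 0 of 14 neuronal and muscle genes (2 unadjusted, median 0.00036). ZNF536, of the neuronal genes the one with the most G sites in naked DNA, had 166 to 202 normalised sites in TMZ cells and 128 to 219 in controls, both below the 223 to 226 of naked DNA. Its TMZ and solvent values differed by -0.0081 (limma adjusted p = 0.954).

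Tandem families expressed in few tissues, such as cytochromes P450, olfactory receptors and immune receptors, had 2 higher and 6 lower of 104 tested (median -0.070, and -0.056 at other bases). Over all autosomal genes tested 5.81% were higher and 4.24% lower, so the share of lower calls was near that of all genes. CYP2A6, which oxidises nicotine, was at -1.26 ± 0.24 (SE, limma adjusted p = 0.000544), from 2 to 21 G sites in TMZ cells and 1 to 5 in controls. CYP4F2, a vitamin K oxidase, was at -0.81 ± 0.19 (SE, limma adjusted p = 0.00417), and -0.39 at other bases. OR10H5, an olfactory receptor, and CEACAM20, an adhesion protein, were at -0.87 and -0.73 (limma adjusted p = 0.0098 and 0.00675), but at 0.013 and -0.12 at other bases. CYP4F2 and CEACAM20 lost their calls without replicate 1 or 3 (limma adjusted p = 0.0529 to 0.0962), and OR10H5 without any 1 of the 3 replicates (limma adjusted p = 0.0567 to 0.0933). CEACAM3 and SIGLEC6 were the 2 higher genes, at 0.77 and 0.91. NLRP5, with the most G sites of these families in naked DNA, was at 0.018 (limma adjusted p = 0.958). Many of these genes have near-identical neighbours, so the placing of their reads is uncertain.

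Between genotypes under TMZ, 5 of the 1326 genes were called, against 5.77% of all genes tested (3.7% higher and 2.08% lower), and 0 of 71 with the stricter minimum of sites. ZNF333 was higher in MGMT cells (0.55 ± 0.15 SE, limma adjusted p = 0.0191, 0.34 at other bases). SIX5, a homeobox gene, had 3 to 35 G sites (median 16.5) in WT and 0 to 25 (median 6) in MGMT cells, a log2 difference of -1.34 ± 0.31 (SE, limma adjusted p = 0.00406). The other three, FIZ1, ZNF865 and ZNF581, neighbour each other between 55591376 and 55645623. Their log2 differences were -0.93, -1.05 and -0.97 (limma adjusted p = 0.0334, 0.00874 and 0.00216), and -0.35, -0.41 and -0.49 at other bases. ZNF581 had 10 to 87 G sites (median 49) in WT and 4 to 42 (median 16.5) in MGMT cells, so the groups overlapped in sites. Each of the 5 lost its call without at least 1 replicate (highest limma adjusted p = 0.435 for ZNF333, 0.0942 for SIX5, 0.412 for FIZ1, 0.0952 for ZNF865 and 0.109 for ZNF581). These 5 were named after their values were seen. For 3 against 1 exposure (0% of all genes) limma called 0 genes here, with 80 at an unadjusted p under 0.05 (6.03%, against 8.91% of all genes). For TMZ cells against naked DNA (0.0702% of all genes, 0.0351% in each direction) it called 0, with 96 unadjusted (7.24%, against 11.5%).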

How the data were processed

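O6-MeG-seq libraries of 24 cell samples and 3 naked DNA samples were used. Per the submitters' processing notes, FastQC 0.11.9, Trimmomatic 0.38 and 0.39, cutadapt, Bowtie2 2.3.5.1, GATK 4.2.0.0, SAMtools 1.12, bedtools 2.29.2 and the build GRCh38 were used, and the notes give no role. The files have no header: the deposited lists hold, per marked position, its chromosome, coordinate (0-based), base, strand and the authors' whole-number score, whose definition is not given in the sources used here and which had to be at least 30 here. Each position counts 1 time, so values are distinct sites, not reads. Positions are printed counted from 1.

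Single ratios per library were compared with two-sided exact permutation tests within the other factors, adjusted with the Benjamini-Hochberg method over 18 comparisons. Sites per window or gene were tested with limma 3.58.1 (voom, library sizes by the trimmed mean of M values, R 4.3.3) over all autosomal windows or genes in which 3 or more libraries had 10 or more sites. Comparisons with naked DNA and between exposures used the same fit. Naked-relative window levels used a pseudocount of 0.5. Gene starts, ends and names came from RefSeq. Python 3.11.15, numpy 2.4.6, pandas 2.3.3, scipy 1.17.1 and matplotlib 3.10.9 were used. On simulated 2-fold changes limma found 99.5% of 200 changed windows (6 false of 205 calls) and 75.8% of 194 changed genes. The simulated libraries were drawn independently, with equal group means elsewhere and no sharing sets. Most differences in the deposited data were smaller than 2-fold, so these rates do not carry over to them.

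A few results are not reported here. Genes named are the 2 highest and 2 lowest zinc-finger genes of the clusters, and from 6 further lists the member with the most naked G sites and up to 4 called members. Windows named by rule are called ones without overlap, up to 3 per direction, and the 3 highest and 3 lowest by level under TMZ. Further called windows were named after their values were seen. The members and lists were chosen with earlier results of these data known. In stretches of 1 Mb, same-numbered libraries deviated together (r over 0.1) in 4 of 6 MGMT and WT pairs under TMZ and 6 of 12 TMZ and solvent pairs. In 100 kb windows they did so in 3 of 6 and 4 of 12. As this held for only a part of the pairs, the number was not a block in the main tests, and counts of same-numbered pairs only describe direction. The comparison of TMZ effects flagged below does rest on these pairs.

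Alternatives were other library sizes with limma-trend, no minimum score, filters on low values, only the groups compared, a replicate block, the sharing set as a block (chosen after seeing the data), each replicate left out, subtraction of the solvent control and division by sites at other bases. Intervals and p-values cover the spread between these libraries.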

Additional observations from a re-analysis of the deposited data

Results flagged for a closer look

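Here the effect of TMZ over solvent was compared between 3 and 1 exposures, over same-numbered pairs, in 10 such comparisons of measures and factors. The numbers only match libraries here, and the SD and p of each effect depend on that matching. For chromosome 19 over the other autosomes the effect was 0.196 ± 0.049 (log2, 6 pairs, all higher under TMZ) after 3 exposures and 0.031 ± 0.11 (4 of 6 pairs higher) after 1. The 2 effects differed by 0.165 (exact permutation p = 0.01, adjusted p = 0.0333). Against chromosome 18 they were 0.236 ± 0.071 and 0.034 ± 0.12, a difference of 0.203 (exact permutation p = 0.005, the smallest that 400 arrangements allow, adjusted p = 0.0333). For the zinc-finger clusters over the rest of the chromosome the effects were -0.215 ± 0.047 and -0.114 ± 0.059, each with 0 of 6 pairs higher, and differed by -0.101 (exact permutation p = 0.01, adjusted p = 0.0333).

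The pairs of replicate 1 include the controls that share the most positions with their own TMZ libraries, 289 and 152 times the median. Pairs of the other numbers also shared, up to 9.02 times in MGMT replicate 2 after 1 exposure, and stay in when replicate 1 is left out. Without replicate 1 the 3 differences were 0.114, 0.156 and -0.103 (exact permutation p = 0.111, 0.0556 and 0.111, where 0.0556 is the smallest possible). At sites of other bases they were 0.148, 0.164 and -0.144. The differences of the G sites beyond those at other bases were 0.017, 0.039 and 0.043 (exact permutation p = 0.55, 0.24 and 0.27). What part the shared positions play was not tested. Between genotypes the effect of TMZ differed by no more than -0.058 in these measures (exact permutation, lowest adjusted p = 0.507).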

How the results depend on the processing

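Of the alternative values of single comparisons, 105 kept direction and side of the threshold, 9 newly passed, 13 no longer passed and 12 changed direction, 9 of these when G sites were taken relative to other bases. Relative to other bases the values for chromosome 19 were -0.0065 (TMZ and solvent), 0.024 and 0.0087 (genotypes under TMZ and solvent) and 0.0047 (naked DNA), and against chromosome 18 -0.0024 (TMZ and solvent) and 0.021 (exposures). For the zinc-finger clusters they were -0.024 (TMZ and solvent), 0.032 (exposures) and -0.048 (naked DNA), and for gene starts 0.021 (TMZ and solvent), 0.023 (genotypes) and 0.037 (naked DNA). With no minimum score, TMZ and solvent differed by 0.160 on chromosome 19 and 0.169 against chromosome 18 (exact permutation, adjusted p = 0.00759 each), and exposures by 0.157 (adjusted p = 0.036, exact) and 0.127 (adjusted p = 0.06, exact). With the replicate number as a block these were 0.114 and 0.135 for TMZ and solvent (adjusted p = 0.0393 each, exact sign-flip permutation of pairs; same-numbered libraries did not deviate together throughout, so the numbers name libraries only) and 0.144 for exposures against chromosome 18 (adjusted p = 0.0875, exact). With the solvent control subtracted, exposures differed by 0.162 against chromosome 18 (exact permutation, adjusted p = 0.055), genotypes at gene starts by 0.029 and naked DNA there by 0.021, with MGMT replicate 1 given TMZ 1 time dropped for lack of a value. Without the 2 replicate 1 controls given solvent 1 time TMZ and solvent differed by 0.156 and 0.180. Leaving out each replicate gave 0.084 to 0.150 (chromosome 19) and 0.099 to 0.182 (against chromosome 18) for TMZ and solvent, 0.078 to 0.202 for exposures and -0.032 to 0.024 for genotypes against chromosome 18, -0.177 to -0.153 for the clusters and 0.269 to 0.367 for gene starts.

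Windows called numbered 153 for TMZ and solvent (136 with a replicate block, 131 with the sharing set as a block, 81 with limma-trend on median-of-ratios sizes, 39 to 141 with a replicate left out), 3 for genotypes (0 with limma-trend, 0 with no minimum score, 13 with only the groups compared, 13 with the set as a block, 1 with the stricter filter, 0 to 5 with a replicate left out) and 0 for exposures (2 with only the groups compared, 27 with the set as a block, 1 with no minimum score, 0 to 35 with a replicate left out, 35 without replicate 1). Genes numbered 102 for TMZ and solvent (171 without a filter, 66 with the set as a block, 22 with the stricter filter, 16 to 86 with a replicate left out), 5 for genotypes (0 with limma-trend, 10 with only the groups compared, 8 with the set as a block, 0 with the stricter filter, 1 to 2 with a replicate left out), 0 for exposures (1 without a filter, 2 with only the groups compared, 15 with no minimum score, 1 with the set as a block, 0 to 2 with a replicate left out) and 0 against naked DNA (2 without a filter, 5 with only the groups compared, 1 with the stricter filter, 0 to 2 with a replicate left out). Direction changed for INSR (-0.19 to 0.049 with a replicate left out), NLRP5 (-0.065 with limma-trend, -0.041 to 0.024 with a replicate left out, -0.037 with no minimum score) and ZNF536 (-0.065 to 0.038 with a replicate left out, 0.0084 with no minimum score, 0.058 with the stricter filter), of which no value passed. The causes were not tested. Counts over all windows or genes are given above for only some of these settings. Solvent libraries had 7.57 to 30.3 G sites per window, which limits single windows in the comparison of TMZ with solvent.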

Other observations

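The strand of G sites within genes was looked at after the other results, as a measure of its own. Over 1022 chromosome 19 genes with a known strand and no overlapping gene on the other strand, 53.1% ± 0.855 (SD, n = 12) of G sites in TMZ cells lay on the coding strand, 51.3% ± 1.40 (n = 12) in controls and 52.1% ± 0.649 (n = 3) in naked DNA. TMZ cells were higher than controls by 1.71 percentage points (exact permutation p = 0.0023, adjusted over 12 such tests p = 0.0097). By sharing set, TMZ cells were 2.5 points higher in the first, 0.24 in the second and 2.35 in the third. At other bases the shares were 51.8% and 50.5% in TMZ cells and controls. MGMT and WT cells under TMZ differed by -0.054 points (exact permutation, adjusted p = 0.987). The 107 zinc-finger genes of the clusters had higher shares than the other genes in 26 of 27 libraries, 55.9% ± 2.08 in TMZ cells, 55.5% ± 2.18 in controls and 54.6% ± 1.07 in naked DNA, with a TMZ and solvent difference of 0.42 points (exact permutation, adjusted p = 0.962). On chromosome 18, over 210 genes, the difference was 1.62 points (exact permutation, adjusted p = 0.0097), and 2.61, 0.049 and 2.19 points within sets 1, 2 and 3.

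The long-arm cluster had 9 higher and 0 lower calls under TMZ among 66 tested windows, against 10.3% and 8.96% of all autosomal windows tested. Its share of higher calls was thus not far from that of all windows. Its 9 windows higher under TMZ include chr19:54100001-54200000 with CNOT3 and PRPF31 (0.47 ± 0.11 SE, limma adjusted p = 0.00137, 0.46 at other bases) and chr19:55300001-55400000 with RPL28 and UBE2S (0.50 ± 0.11 SE, limma adjusted p = 0.00103, 0.48 at other bases), where genes of other families lie between the zinc-finger genes. These windows were named after their values were seen.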
